A study of Mus musculus with 4 samples.

Results

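Bmi1 and 8 further Polycomb group genes were measured in sorted mouse skin cells after induction of a miR-203 microRNA transgene. The genes were taken by symbol: Bmi1, Ring1, Rnf2, Pcgf2 and Cbx8 of Polycomb repressive complex 1 (PRC1), and Ezh1, Ezh2, Eed and Suz12 of Polycomb repressive complex 2 (PRC2). They are 9 of the 13489 named genes with at least 1 probe set bright enough to test. On the array, 25 probe sets were annotated to these 9 genes and to no other, of which 19 passed the filter on dim values. The induced pups carried K14-rtTA, TRE-miR-203 and K14-H2BGFP (labelled DP, genotype miR-203 inducible), and their control littermates carried TRE-miR-203 and K14-H2BGFP alone (labelled SP, genotype WT, titled uninduced). All were on the FVB background and were taken at postnatal day 4, 24 h after a Dox injection that the protocol gives for the littermates together. The keratin 14 promoter, active in basal keratinocytes and the outer root sheath of hair follicles, drives both the rtTA activator and the nuclear green fluorescent protein. The controls lack rtTA, so effects of rtTA and of miR-203 cannot be told apart. Cells were sorted (gate not given in the sources used here), then 2 induced and 2 control arrays were hybridised. Whether an array stands for 1 pup or several is not stated. With 2 arrays against 2, an exact two-sided permutation test cannot give a p below 0.333, so the tests below borrow the spread of all probe sets.

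Polycomb proteins keep genes silent through chromatin. PRC2 methylates histone H3 through its catalytic subunit, either Ezh2, which is abundant in dividing cells, or Ezh1, which is more prominent in resting and differentiated cells, and needs Eed and Suz12 to do so. PRC1 attaches ubiquitin to histone H2A through Ring1 or Rnf2, paired with a Pcgf protein such as Bmi1 or Pcgf2, and its Cbx subunits, Cbx8 among them, bind the methyl mark that PRC2 leaves. In mouse epidermis, PRC2 restrains differentiation genes in basal progenitors and the making of Merkel cells, and both complexes repress the Cdkn2a locus. Bmi1 has been named a miR-203 target in work on human cancer cells.

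The mature microRNA that the transgene is named for is shown because its seed, bases 2 to 8, is what pairs with targets, and the promoters of Bmi1, Ezh1 and Ezh2 because Bmi1 and Ezh1 differed most between the groups and Ezh2 is the paralog of Ezh1. All come from RefSeq on GRCm38.p6, written 5′ to 3′ on the gene's own strand. The capitals in the microRNA mark its seed, which no other of the 1738 mature sequences in the RefSeq table carries. mmu-miR-203-3p lies at chr12:112130927-112130948 on the plus strand. The Bmi1 window is chr2:18676768-18677067 on the plus strand, that of Ezh1 chr11:101226414-101226713 on the minus strand, and that of Ezh2 chr6:47594981-47595280 on the minus strand. The genes themselves span chr2:18677018-18686629, chr11:101191115-101226463 and chr6:47530274-47595270 in the same table. Each promoter window runs from 250 bases before to 50 bases after the start that the promoter table uses, and the capitals mark motif matches. That start is the outer end of the annotated gene for 7 of the 9, but lies 240 bases inside the annotated span for Ezh2 and 2786 bases inside it for Pcgf2.
mmu-miR-203-3p: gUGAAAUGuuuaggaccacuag
Bmi1: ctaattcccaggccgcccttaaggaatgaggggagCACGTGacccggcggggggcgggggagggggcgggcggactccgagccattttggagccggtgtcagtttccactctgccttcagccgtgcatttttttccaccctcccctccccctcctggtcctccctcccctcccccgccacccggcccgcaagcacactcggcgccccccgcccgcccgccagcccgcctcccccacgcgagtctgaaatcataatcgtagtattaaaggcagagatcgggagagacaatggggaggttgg
Ezh1: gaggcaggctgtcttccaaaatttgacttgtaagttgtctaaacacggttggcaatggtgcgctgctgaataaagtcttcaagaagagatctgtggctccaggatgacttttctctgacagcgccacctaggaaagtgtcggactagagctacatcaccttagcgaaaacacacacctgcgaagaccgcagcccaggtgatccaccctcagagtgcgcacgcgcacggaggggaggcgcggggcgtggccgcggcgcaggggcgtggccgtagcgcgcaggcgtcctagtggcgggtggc
Ezh2: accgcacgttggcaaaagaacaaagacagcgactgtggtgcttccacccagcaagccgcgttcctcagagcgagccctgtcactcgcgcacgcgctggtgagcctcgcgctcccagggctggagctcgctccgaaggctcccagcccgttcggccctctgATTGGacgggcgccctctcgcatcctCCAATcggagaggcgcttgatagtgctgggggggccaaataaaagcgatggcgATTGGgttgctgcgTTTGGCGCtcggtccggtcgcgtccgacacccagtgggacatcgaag

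The motifs searched, on both strands, were the E-box CACGTG, the CCAAT box CCAAT, the E2F sites TTTGGCGC, TTTCCCGC, TTTCGCGC and TTTGCCGC, the TATA box TATAAA and the cyclic AMP response element TGACGTCA. No match overlapped another in the 9 windows. The Bmi1 window held 1 E-box, as did those of its paralog Pcgf2 and of Cbx8, so 3 of the 9 windows held one, against 7.15% of all 32851 promoter windows of the table. The Ezh2 window held 3 CCAAT boxes and 1 E2F site, and that of Suz12 held 1 of each. In all, 4 of the 9 windows had a CCAAT box, against 37.4% of all windows, 2 had an E2F site, against 2.26%, 1 (Cbx8) had the cyclic AMP response element, against 1.79%, and 0 had a TATA box, against 13.6%. The Ezh1, Ring1 and Rnf2 windows held none of these letters. GC content ran from 54.7% (Eed) to 74.0% (Ring1) over the 9 windows, with a median of 52.7% over all windows. A match is a description of the letters only.

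The arrays agreed closely, with Pearson's r across probe sets of 0.994 between the induced and 0.995 between the control arrays. Between arrays of different groups r was nearly as high, at 0.991 to 0.993. Induced replicate 1 stood apart in sex-linked transcripts. Y-linked Eif2s3y was at a log2 value of 9.38 there and 2.72 in induced replicate 2, against 2.82 and 2.52 in the controls. X-linked Xist was at 5.86 in induced replicate 1 and 11.2 in induced replicate 2, against 10.6 and 10.8 in the controls. The groups were thus not balanced in sex-linked transcripts. For the brightest probe set of each of the 9 Polycomb genes, the difference is therefore also given without induced replicate 1. Of the other differences, only some are given without it. The basal keratins that define the labelled epidermal cells were near the top of the scale, with Krt14 at 14.0 and 14.0 in the induced arrays and 14.1 and 14.1 in the controls, and Krt5 at 13.7 and 13.6 against 13.8 and 13.8. Markers of other cells were partly present. The 5 melanocyte markers summed to 3394 and 5238 linear units in induced replicates 1 and 2, against 3792 and 3983 in the controls, and the 5 immune markers to 1732 and 1222 against 1593 and 1324. Of 6 fibroblast markers 3 passed the filter, Col1a1 not among them. These 3 summed to 244 and 454 in induced replicates 1 and 2, against 370 and 354 in the controls. Dcn was the brightest, at log2 values of 7.57 and 8.42 against 8.23 and 8.04. Of 5 endothelial markers 1 passed the filter. Hair follicle genes were mostly higher in the induced arrays, with a median difference of 0.68. Of the 8 measured, 5 lay above both controls in both induced arrays (20.1% of all genes did so). Krt35, Gata3 and Lef1 overlapped between the groups, Lef1 with a difference of -0.05. The 8 summed to 20663 and 24858 against 12372 and 15203, a sum carried mostly by the bright Krt25, Krt27 and Krt71. DNA replication genes were lower, the 23 measured summing to 9062 and 11809 against 14509 and 13104. Their median difference was -0.41, and -0.24 without induced replicate 1. The part of these cell and cycle differences in the Polycomb values was not tested. In bulk samples, fewer cells of a type and less RNA per cell cannot be told apart.

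No Polycomb gene passed the test. In limma, with Benjamini-Hochberg adjustment over the 27022 probe sets kept, an adjusted p under 0.05 was reached by 0 of the 19 Polycomb probe sets and by 0.0% of all, the lowest adjusted p on the array being 0.158. Unadjusted p values under 0.05 numbered 2728 among all kept probe sets. Taking each gene's brightest kept probe set, 1 of the 9 genes (Bmi1) had an unadjusted p under 0.05 and was lower in the induced arrays, where 5.23% of all genes did so, and 0 of the 9 were higher, where 4.4% did so. Both induced arrays lay below both controls for 3 of the 9 (Bmi1, Cbx8 and Suz12), where 19.3% of all genes did so, and above both for 1 (Ezh1), where 20.1% did so. These counts are near the background and say nothing about the 9 genes as a set. By probe set, 7 of 19 lay below both controls in both induced arrays (18.2% of all kept) and 3 above (20.9%), and an unadjusted p under 0.05 was reached by 2 lower (4.69% of all kept), both of Bmi1, and 1 higher (5.41%), of Ezh1. Probe sets of 1 gene read the same transcripts and are not independent.

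**Figure D1:**
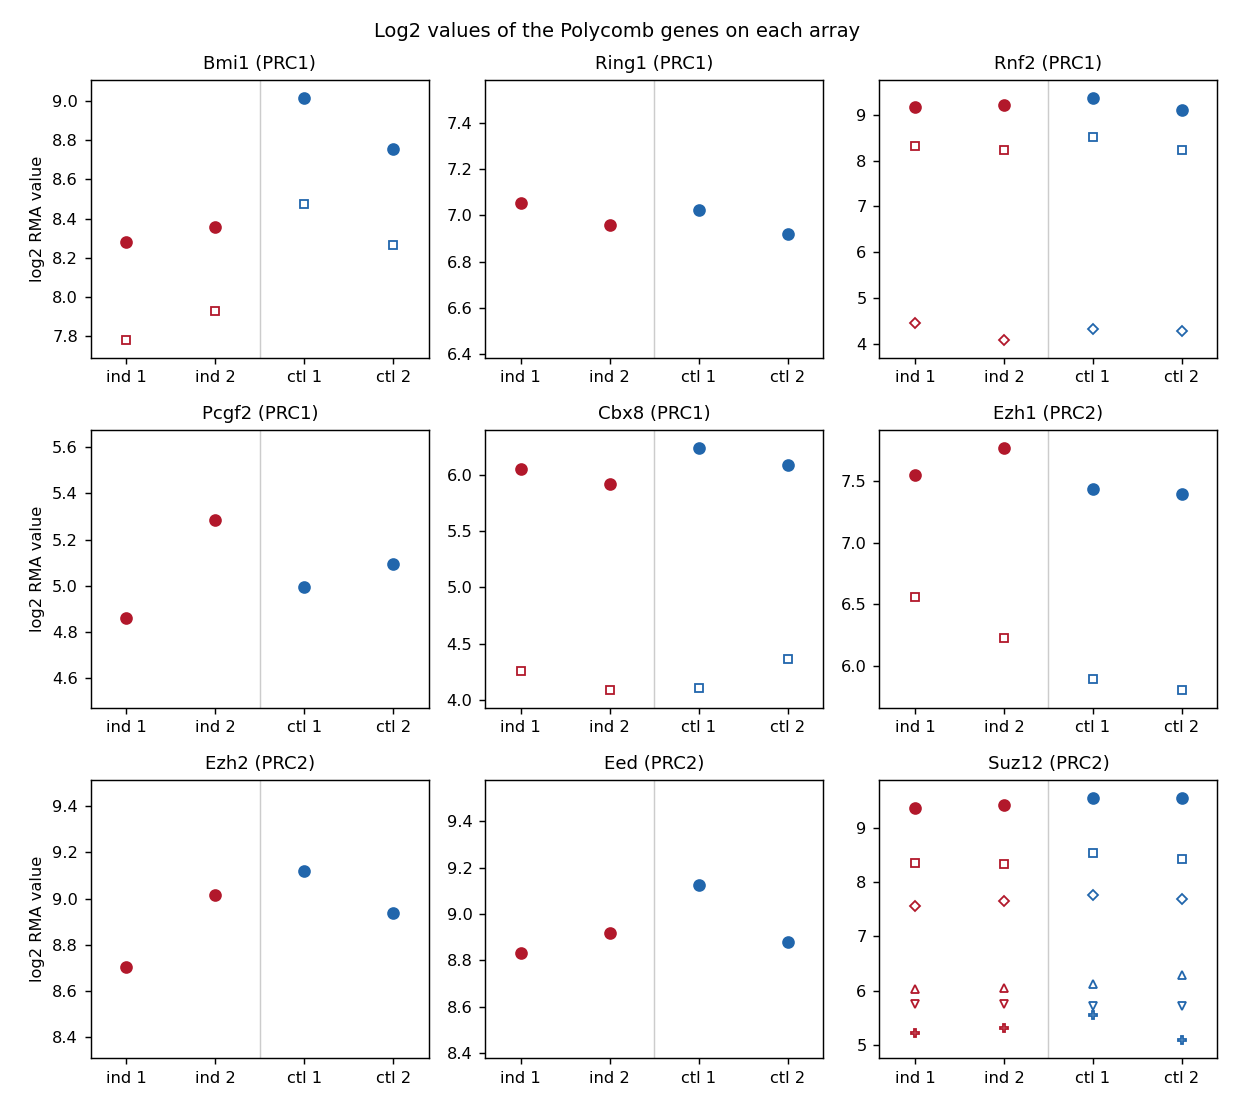
Log2 values (y axis, RMA) of the 19 Polycomb probe sets that passed the filter, on induced replicates 1 and 2 (red) and control replicates 1 and 2 (blue), 1 panel per gene, each with its own scale; filled markers are the gene's brightest probe set and each open shape is another probe set. Both Bmi1 probe sets lie lower, and both Ezh1 probe sets higher, in the 2 induced than in the 2 control arrays.

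Bmi1, the Pcgf subunit that stimulates the ubiquitin ligase of PRC1, was the PRC1 gene with the largest difference. Its brighter probe set had log2 values of 8.28 and 8.36 in the induced arrays, against 9.02 and 8.76 in the controls. The second, built on the same source sequence, had values of 7.78 and 7.93 in the induced arrays, against 8.47 and 8.26. In both, each induced array lay below each control array, and control replicate 1 was the highest of the 4. The difference in mean log2 value was -0.57 ± 0.12 (SE, n = 2 and 2; 1.48-fold lower; unadjusted p = 0.00384 and adjusted p = 0.261 in limma) for the brighter probe set and -0.51 ± 0.12 (1.43-fold lower, adjusted p = 0.280) for the other. The spread within groups was smaller than that, with an SD of 0.05 in the induced and 0.18 in the control arrays for the brighter one. With induced replicate 1 (Y-linked transcripts) left out, the difference was -0.53, and leaving out each array in turn gave -0.70 to -0.44, with adjusted p values of 0.483 to 0.740.

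Pcgf2, also called Mel18, which can take the place of Bmi1 in PRC1, showed no such difference. Its kept probe set had values of 4.86 and 5.29 in the induced arrays, against 4.99 and 5.09 in the controls, so that the induced arrays lay on either side of both controls. The difference was 0.03 ± 0.16 (adjusted p = 0.983), with a sign that turned when induced replicate 2 (-0.18) or control replicate 1 (-0.02) was left out, and it was 0.24 without induced replicate 1. Its other probe set was below the filter level of 4.17 and was not tested. The difference between Bmi1 and Pcgf2 was not tested.

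The catalytic subunits of PRC1 differed between the groups by less than their standard errors. Ring1 had values of 7.05 and 6.96 in the induced arrays, against 7.02 and 6.92 in the controls, with a difference of 0.04 ± 0.10 (adjusted p = 0.960). Rnf2, also called Ring1B, had values of 9.17 and 9.20 in the induced arrays, against 9.37 and 9.10, in its brightest probe set, with a difference of -0.04 ± 0.12 (adjusted p = 0.960). The groups overlapped for both genes. The other 2 kept probe sets of Rnf2 differed by -0.10 ± 0.13 and -0.03 ± 0.14, and 2 more were below the filter level. The sign for Ring1 turned without induced replicate 1 (-0.01) or control replicate 2 (-0.02), and that for Rnf2 without control replicate 1 (0.09). Rnf2 differed by -0.03 without induced replicate 1.

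Cbx8, a chromodomain subunit, had values of 6.05 and 5.92 in the induced arrays, against 6.24 and 6.09 in the controls, in its brighter probe set. The induced arrays lay below the controls by a margin smaller than the spread within either group. The difference was -0.18 ± 0.11 (adjusted p = 0.673), and its dimmer probe set, near the filter level, differed by -0.06 ± 0.13 with overlapping groups. For the brighter one the difference was -0.24 without induced replicate 1, -0.11 without induced replicate 2, -0.10 without control replicate 1 and -0.25 without control replicate 2. The sign of the dimmer one turned without induced replicate 2 (0.03) or control replicate 2 (0.07).

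Ezh1 was the PRC2 gene that went the other way. Its brightest probe set had log2 values of 7.55 and 7.76 in the induced arrays, against 7.43 and 7.40 in the controls. A second kept probe set, built on the same source sequence, had values of 6.56 and 6.22 in the induced arrays, against 5.89 and 5.81. In both, the 2 induced arrays lay above the 2 controls, although induced replicate 2 was the higher in the first and induced replicate 1 in the second. The difference was 0.24 ± 0.11 (1.18-fold higher, adjusted p = 0.556) in the brightest probe set and 0.54 ± 0.14 (1.45-fold higher, unadjusted p = 0.00826, adjusted p = 0.308) in the other, so the size depends on the probe set read. Without induced replicate 1 they were 0.35 and 0.37, and over the 4 ways of leaving out an array 0.13 to 0.35 and 0.37 to 0.71, the 0.13 being without induced replicate 2. The other 2 probe sets of Ezh1 had values between 2.79 and 3.37 on all arrays and were not tested.

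Ezh2, the paralog of Ezh1 and the main methyltransferase of dividing progenitors, was measured by 1 probe set. Its values were 8.71 and 9.02 in the induced arrays, against 9.12 and 8.94 in the controls, so that the groups overlapped. The difference was -0.17 ± 0.14 (adjusted p = 0.769), which became -0.01 without induced replicate 1 and -0.32 without induced replicate 2, the array left out deciding the size. Induced replicate 1 was also the array with the lowest level of the DNA replication genes, whose mean log2 value was 7.60 and 7.96 in the induced arrays and 8.35 and 8.14 in the controls; the part of that in the Ezh2 value was not tested. The difference between Ezh1 and Ezh2 was not tested either.

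Eed and Suz12, the non-catalytic core subunits among the 9 genes, had slightly lower means in the induced arrays. Eed, which binds the methyl mark, had values of 8.83 and 8.92 in the induced arrays, against 9.13 and 8.88 in the controls, with overlapping groups and a difference of -0.13 ± 0.12 (adjusted p = 0.803). It became -0.09 without induced replicate 1, -0.01 without control replicate 1 and -0.25 without control replicate 2. Suz12, the scaffold of PRC2, had 6 kept probe sets, and its brightest had values of 9.38 and 9.43 in the induced arrays, against 9.55 and 9.55. That difference was -0.15 ± 0.09 (1.11-fold lower, adjusted p = 0.677). It lay between -0.17 and -0.12 whichever array was left out, the -0.12 being without induced replicate 1. For Suz12, 4 of the 6 probe sets had both induced arrays below both controls (18.2% of all kept did so), with differences of -0.16 to -0.11. One further probe set had both above (0.04 ± 0.09, 20.9% of all kept). The last overlapped (-0.06 ± 0.17) and turned to 0.17 without control replicate 1. These probe sets read the same transcripts and are not independent. Most thus gave a slightly lower Suz12, by an amount that the test did not separate from error.

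**Figure D2:**
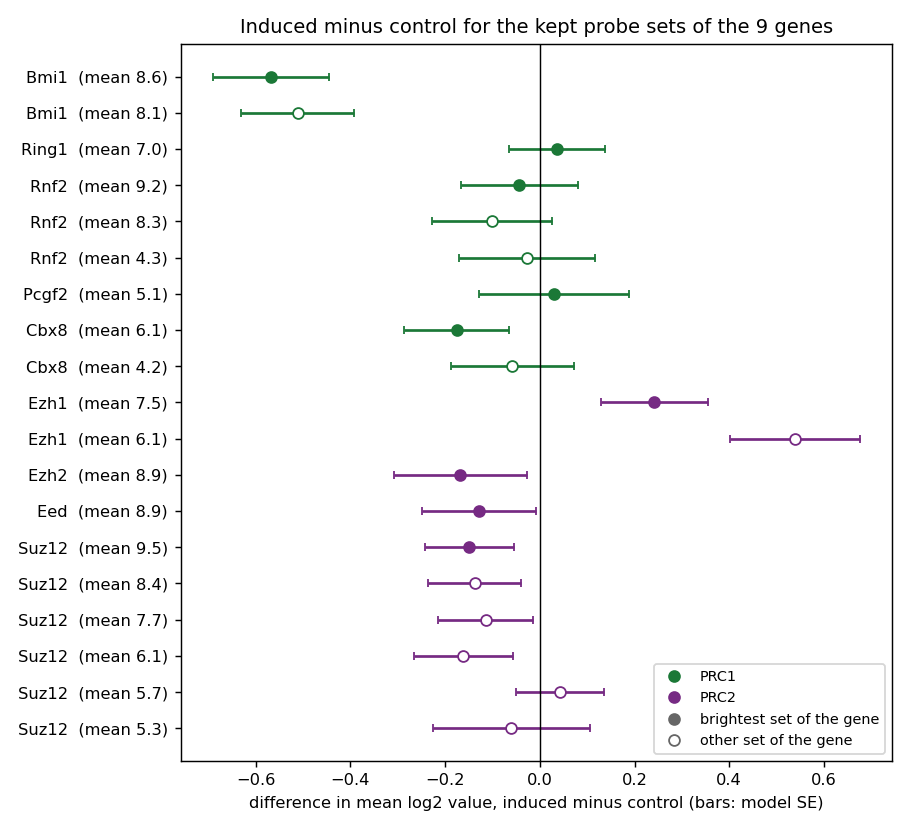
Difference in mean log2 value, induced minus control (x axis), for the 19 kept probe sets of the 9 genes, with the standard error of the model as bars and the mean log2 value over the 4 arrays beside each name. Bmi1 lies lowest at -0.57 and -0.51, Ezh1 highest at 0.24 and 0.54, and the other genes lie between -0.18 and 0.04.

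Set against each other, the medians of the 2 complexes lay close together. The median difference was -0.04 over the 5 PRC1 genes and -0.14 over the 4 PRC2 genes, against -0.00 over all 13489 genes, and the induced mean was the lower for 3 of 5 and 3 of 4. The PRC1 median minus the PRC2 median was 0.10. A related quantity was taken on each array, the PRC1 minus the PRC2 median of values centred by gene. Its pooled SD within groups was 0.06, which is not the spread of the 0.10 itself. The 0.10 shrank to 0.02 when induced replicate 1, control replicate 1 or control replicate 2 was left out. The PRC1 median became -0.18 without control replicate 2. Single genes ran from -0.57 (Bmi1) to 0.04 (Ring1) in PRC1 and from -0.17 (Ezh2) to 0.24 (Ezh1) in PRC2. Since the genes were chosen with earlier results known, no p is given for either group.

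**Figure D3:**
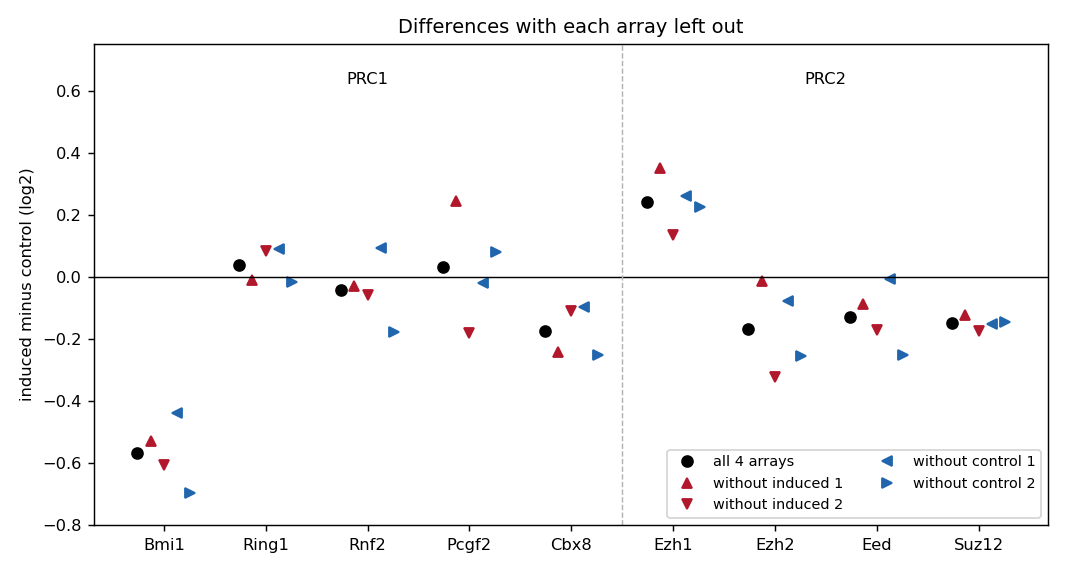
Difference in mean log2 value, induced minus control (y axis), of the brightest probe set of each Polycomb gene with all 4 arrays (black) and with 1 induced (red) or 1 control (blue) array left out. Bmi1 stays between -0.70 and -0.44, and Ezh1 between 0.13 and 0.35, whereas Ring1, Rnf2 and Pcgf2 cross 0.

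The remaining subunits of PRC1 lay close to no difference. Of 28 listed, 26 were on the array and 25 passed the filter, with a median of 0.01 and a range of -0.16 to 0.27, and 0 passed the test. Cbx2, a chromodomain subunit like Cbx8, had values of 7.52 and 7.56 in the induced arrays, against 7.25 and 7.28 in the controls. That is a difference of 0.27 ± 0.09 with groups that do not overlap (adjusted p = 0.429), opposite in sign to Cbx8. Dcaf7, a subunit of PRC1 forms with Pcgf3 or Pcgf5, differed by 0.20 ± 0.10, the corepressor Bcorl1 by -0.16 ± 0.10 and the Polyhomeotic gene Phc1 by 0.12 ± 0.11. Both induced arrays lay below both controls for 1 of the 25 (19.3% of all genes did so) and above for 4 (20.1% of all genes).

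None of the remaining PRC2 subunits, which are the accessory ones and the core subunits Rbbp4 and Rbbp7, passed the test. Rbbp4 and Rbbp7 differed by -0.14 ± 0.12 and -0.07 ± 0.11. Of the 10 genes listed, 9 passed the filter, 6 of them with a higher mean, and their median was 0.11. Both induced arrays lay above both controls for 5 (20.1% of all genes did so) and below for 0 (19.3% of all genes). The median was -0.01 when the probe sets of a gene were averaged, so that the direction rests on the brightest ones. Jarid2, which helps to bring PRC2 to its targets, had values of 9.13 and 9.03 in the induced arrays, against 8.60 and 8.79 in the controls. Its difference was 0.38 ± 0.11 (1.30-fold higher, unadjusted p = 0.0147, adjusted p = 0.363), and its other 2 kept probe sets differed by 0.24 and 0.36, each with both induced arrays above both controls. Of the other named members, the PRC2 inhibitor Ezhip differed by 0.20 ± 0.11 at a dim level, and the Polycomb-like genes Phf19 and Mtf2 by 0.17 ± 0.11 and 0.13 ± 0.11, with 1 kept probe set of opposite sign each.

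Genes tied to the removal of Polycomb histone marks showed no common direction. The list held histone deubiquitinases, the Asxl partners of the deubiquitinase Bap1, and H3 demethylases. Of 9 listed genes, 7 passed the filter, with a median of 0.02. Bap1, Asxl1 and Asxl2 differed by 0.06 ± 0.11, -0.05 ± 0.09 and 0.02 ± 0.09. Usp21, a deubiquitinase of histone H2A, differed by 0.27 ± 0.12 (adjusted p = 0.535), Usp16, another, by -0.17 ± 0.10 and the demethylase gene Kdm6b by 0.16 ± 0.10. Kdm6a, an X-linked demethylase gene that escapes X inactivation, had values of 8.65 and 8.90 in the induced arrays, against 8.96 and 9.07 in the controls (-0.24 ± 0.12, adjusted p = 0.592), while 1 of 2 further kept probe sets ran the other way. Its Y-linked counterpart Uty, with 4 probe sets below the filter level, had log2 values of 5.59 and 3.73 in induced replicates 1 and 2, against 3.59 and 3.47 in the controls, in the brightest of them. Without induced replicate 1 the Kdm6a difference was -0.12. In the brightest probe set of each gene, induced replicate 1 was thus the lowest of the 4 arrays for Kdm6a and the highest for Uty.

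The Trithorax group, whose histone methyltransferases oppose Polycomb silencing, had 12 of its 13 listed genes measured, 9 of them with a higher mean, and a median of 0.03. Kmt2d had values of 7.49 and 7.62 in the induced arrays, against 7.03 and 7.26 in the controls. It differed by 0.41 ± 0.12 (adjusted p = 0.362), with its other kept probe set at 0.00. Setd1b had values of 7.05 and 7.27 in the induced arrays, against 6.83 and 6.77 in the controls, with differences of 0.36 ± 0.11 (adjusted p = 0.395) and 0.31 in its 2 probe sets. The groups did not overlap for either gene. Kmt2c and Kmt2a differed by 0.17 ± 0.11 and 0.22 ± 0.15. The median of the group was 0.13 without induced replicate 1 and -0.04 without induced replicate 2. None of the 12 passed the test.

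**Figure D4:**
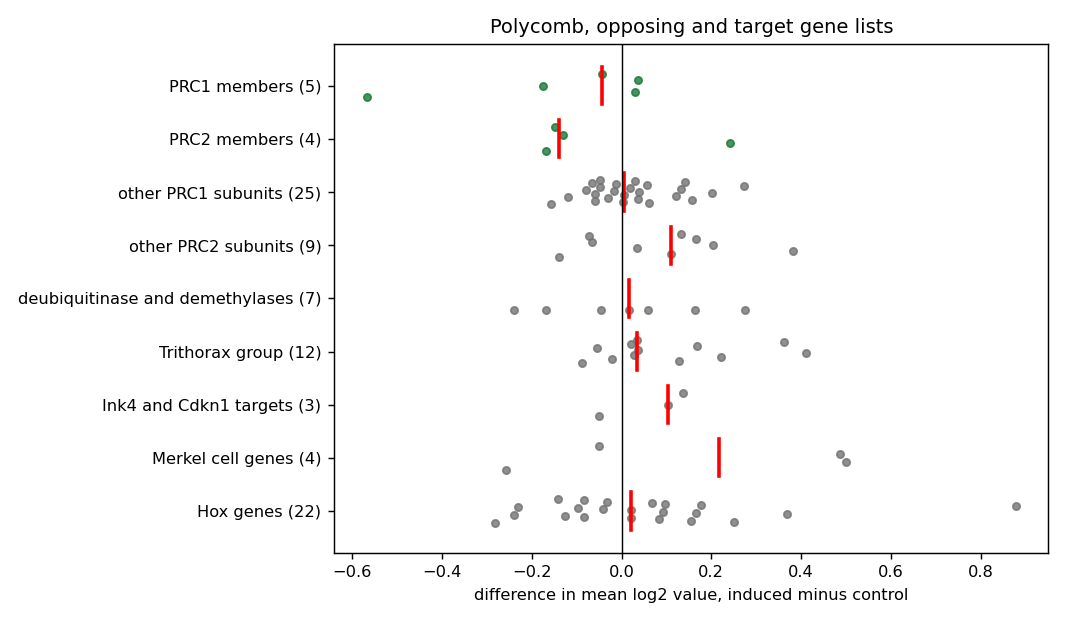
Difference in mean log2 value, induced minus control (x axis), of the brightest probe set of each kept gene (points) in 9 lists, with the number of genes in brackets and the list median as a red bar; the vertical position within a list carries no value. The list medians lie between -0.14 and 0.22, and the highest point is Hoxc13 at 0.88.

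Known Polycomb targets gave no list-wide change. Cdkn2a, which encodes the p16 and p19Arf inhibitors and is the classic target of Bmi1, had values of 3.09 and 3.01 in the induced arrays, against 3.64 and 3.28 in the controls, all below the filter level, so it was not tested. Its neighbour Cdkn2b, which encodes the p15 inhibitor, had values of 7.20 and 6.82 in the induced arrays, against 6.91 and 6.84 in the controls, with overlapping groups (0.14 ± 0.15, adjusted p = 0.843). Cdkn1a and Cdkn1c, which encode the p21 and p57 inhibitors, differed by 0.10 ± 0.11 and -0.05 ± 0.13. The groups overlapped for all 3 of the genes tested, and the signs of Cdkn2b (-0.06 without induced replicate 1) and Cdkn1c (0.01 without it) turned with the arrays used.

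Merkel cell genes were measured in part, with 4 of 10 passing the filter, and Sox2 and Isl1 not among them. Krt8, a keratin of simple epithelia and Merkel cells, had values of 5.98 and 6.15 in the induced arrays, against 5.54 and 5.62 in the controls. The difference was 0.49 ± 0.11 (1.40-fold higher, unadjusted p = 0.00432, adjusted p = 0.268), and its other 2 kept probe sets differed by 0.72 and 0.48, each without overlap. Krt18, the partner of Krt8 in filaments, had values of 5.75 and 5.51 in the induced arrays, against 5.32 and 4.93 (0.50 ± 0.16, adjusted p = 0.406), and its difference was 0.30 without control replicate 2. Krt20, another Merkel cell keratin, had a difference of the other sign (-0.26 ± 0.14, adjusted p = 0.622), and Atoh1, the factor that Merkel cells require, was near the filter level with overlapping groups (-0.05 ± 0.15). The 4 genes thus split, with 2 higher and 2 lower means.

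Hox genes, which are bound by Polycomb in many tissues, had 22 of 39 listed genes above the filter, 12 with a higher and 10 with a lower mean, and a median of 0.02. Hoxc13, which drives hair shaft keratins, had values of 6.59 and 7.31 in the induced arrays, against 5.89 and 6.26 in the controls. The difference was 0.88 ± 0.25 (1.84-fold higher, adjusted p = 0.362), beside the higher hair follicle genes given above, whose part in it was not tested. It was 1.24 without induced replicate 1 and 0.52 without induced replicate 2, so its size rests on which induced array is read. Hoxb4 had values of 5.68 and 5.53 in the induced arrays, against 5.88 and 5.90 in the controls (-0.28 ± 0.10, adjusted p = 0.452). Hoxd9 differed by 0.18 ± 0.10 and Hoxa4 by -0.23 ± 0.14. None of the 22 passed the test.

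The genes whose pattern over the 4 arrays was nearest to that of Bmi1 were Gatad1, Ppp1r14a, Snrnp40, Orc4 and Cdkn2aipnl, out of 13488 compared. Likeness was the root mean square distance between log2 values, each gene centred on its own mean, and lay between 0.0285 and 0.0347 for these 5. Gatad1 had values of 7.24 and 7.28 in the induced arrays, against 7.90 and 7.68 in the controls. Orc4, a subunit of the origin recognition complex, had values of 7.86 and 7.90 in the induced arrays, against 8.55 and 8.24. With 4 arrays many genes can share a pattern, and the distance is a description. Of the other Polycomb genes, Cbx8 was nearest to Bmi1 (0.213, rank 1345) and Ezh1 farthest (0.415, rank 12181).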

How the data were processed

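The 4 samples were each hybridised to a biotin-labelled Affymetrix mouse array. The deposited values are log2 values made by the authors with RMA, per the submitters' processing notes, which give no version; RMA quantile normalizes arrays, which would hide a shift in total RNA (chip definition not given in the sources used here). Of 45101 probe sets, 64 controls were left out. Of the rest 34945 carried 1 gene in the platform annotation, 932 several and 9160 were not listed; 34741 matched the RefSeq gene table of GRCm38.p6, which gave current symbols. Probe sets with a mean log2 value at or above the 40th percentile (4.17) were kept, which left 27022.

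The test was limma's moderated statistic (version 3.58.1, R 4.3.3, two-sided), calling a Benjamini-Hochberg adjusted p under 0.05 over all kept probe sets, with 2 residual degrees of freedom and 3.82 from the prior. The brightest kept probe set, by mean over the arrays, stands for its gene. Genes named from lists are up to 4 per list with the largest absolute statistic. Members and lists were chosen with earlier results of these data known. The replicate labels do not say that a number marks a litter, so no block was used. The replicates are labelled biological, and the number of arrays limits the precision. Sums of marker levels are of 2 to the power of the log2 value. Alternatives were other filters, a second quantile normalization, median centring, averaging the probe sets of each gene, trend and robust options in eBayes, a looser threshold, the replicate block and leaving out each array.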

Additional observations from a re-analysis of the deposited data

How the results depend on the processing

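Over all probe sets the 0 calls at an adjusted p under 0.05 became 126 when eBayes used trend and robust, and the count ran from 0 to 6 when each array was left out in turn, 6 being without induced replicate 2; no Polycomb probe set was among them, the lowest adjusted p of one being 0.0921 (Bmi1, trend and robust). The count was 0 with the replicate block and the deviations of same-numbered arrays correlated at -0.100, so a crossed pairing, added after seeing the data, was also fitted and gave 0 calls. Under the replicate block the Bmi1 difference was -0.57 (adjusted p = 0.480). In their brightest probe sets, Bmi1, Cbx8, Ezh1, Ezh2, Eed and Suz12 kept their sign under every alternative run. The dimmer Cbx8 probe set turned as given above, and the dimmest of Suz12 turned to 0.17 without control replicate 1. Signs turned for Ring1 (-0.017 to 0.089 with an array left out, -0.010 without induced replicate 1), Rnf2 (-0.18 to 0.093) and Pcgf2 (-0.18 to 0.24). The PRC1 median ran from -0.18 to -0.020 and the PRC2 median from -0.20 to -0.043 on leaving out single arrays. A 60th percentile filter, which drops Pcgf2, gave 0.029 for the PRC1 median minus the PRC2 median, and leaving out single arrays gave 0.019 to 0.063, against 0.10 with all arrays; the cause was not tested. Such fits have 1 residual degree of freedom and take the spread of the remaining pair for the lone array too. Dim probe sets can carry compressed differences, as may hold for Pcgf2, the dimmer Cbx8 probe set, Ezhip and Atoh1.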

Other observations

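Among the keratinocyte genes, 8 of the basal layer were measured, with 6 below both controls in both induced arrays (19.3% of all genes were), 1 above (20.1%) and a median difference of -0.15. Krt15, a keratin of basal cells, had values of 12.6 and 12.5 in the induced arrays, against 12.9 and 12.9 in the controls (-0.33, adjusted p = 0.373 in limma). The 7 suprabasal genes, near the top of the scale, had a median of -0.05, with 5 below and 0 above without overlap, beside the same shares of all genes. None of these genes passed the test. Red blood cell genes had 2 of 6 listed measured, at a median of 0.42, Hba-a1 not passing the filter. The 2 were Slc4a1 (0.71 ± 0.11) and Alas2 (0.14 ± 0.10, near the filter level), so the median rests mainly on Slc4a1. Skeletal muscle genes had 2 of 5 measured, at a median of -0.05.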
